A study of Mus musculus with 4 samples.

Results

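Fibroblasts of the mouse ascending aorta were compared between 2 cell origins after 3 days of angiotensin II (AngII) infusion, gene by gene. A fibroblast was a barcode in which 500 or more genes were detected and mitochondrial genes took no more than 10% of the unique molecular identifiers (UMIs). It also had at least 1 UMI of Pdgfra, at least 5 of Dcn, at most 2 of Myh11 and none of Ptprc or Pecam1. The gate held 769 of 10471 filtered barcodes of the CNC_AngII library and 2398 of 9490 of the SHF_AngII library, 3167 fibroblasts among 31676 barcodes in the 3 libraries used here. UMIs were summed over the fibroblasts of each library, and 5042 of 32285 listed genes had a mean of at least 20 CPM (a gene's UMIs scaled to a common total in both libraries). The ratio given for a gene is CNC_AngII over SHF_AngII as log2 of CPM plus 1.

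All mice were male and of the strain labelled Mef2c-mTmG. In mTmG mice a membrane tdTomato gives way to membrane GFP in cells where Cre has acted. Dissociated aortic cells were sorted live by lineage and profiled with 10x Chromium 3' v3 chemistry. SHF stands for the second heart field, the progenitor pool that adds to the outflow tract, and the design text calls the other cells those of other origins. The label CNC is not spelled out. The library labelled SHF_Baseline, from untreated mice of the same strain, is given beside the results as a level only, and the library labelled CNC_Baseline was not analysed here. The driver that marks the lineage is named only through the strain, and neither age nor the number of pooled animals is given in the sources used here. With 1 library in each group there are no replicates and no p-values, and origin, mouse and library cannot be told apart. Intervals are exact at 95% and cover counting error only.

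Both libraries held about the same total, 150954701 UMIs in CNC_AngII and 147854476 in SHF_AngII, but fibroblasts made up 7.34% (6.85 to 7.86) of filtered barcodes in the first and 25.3% (24.4 to 26.2) in the second. Their median depth was 12398 and 15510 UMIs, and their summed UMIs were 10515009 and 40837750. Cells gated as macrophages (Ptprc and Csf1r positive) were 1542 in CNC_AngII and 8 in SHF_AngII. Cells gated as smooth muscle (Myh11 and Acta2 high, without Pdgfra) were 6206 and 4523. The sort or gate can set these shares. The libraries shared 32 barcodes, 1 of them a fibroblast in both. Pdgfra stood at 169 CPM in CNC_AngII and 150 in SHF_AngII, and Dcn at 4610 and 5695, levels that the gate itself fixed to be above 0. Of 10 fibroblast markers, which include these, none passed 1.5-fold, 7 lay below 0, the median ratio was -0.17 and the sums were 23845 and 28792 CPM. At the edge of the gate, 351 CNC_AngII and 954 SHF_AngII fibroblasts had exactly 1 Pdgfra UMI, and 531 and 1232 barcodes met every other criterion with none. At the edge of the gene filter, Ndrg4 and Hs2st1 were just inside at mean levels of 20.007 and 20.018 CPM, and Osbp and Ankrd39 just outside at 19.985 and 19.986.

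Fibroblasts of the aortic adventitia make collagens, proteoglycans and microfibrils, and secrete chemokines that recruit immune cells. Tcf21 is a transcription factor of epicardial and cardiac fibroblast lineages, and secreted frizzled-related proteins bind Wnt ligands outside the cell. AngII raises blood pressure and drives inflammation and matrix turnover of the ascending aorta, a wall built from cells of the second heart field and the cardiac neural crest.

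The fibroblasts of the 2 libraries were alike in most genes. The median size of the log2 ratio was 0.086 over the 5042 genes, and 4467 genes (88.6%) lay within 1.2-fold. At least 1.5-fold higher in CNC_AngII were 56 genes, 1.11% of those compared. At least 1.5-fold lower were 51 genes, 1.01%, so that 107 genes or 2.12% passed this fold in either direction. A 2-fold difference was reached by 22 higher and 7 lower genes. The counting interval of each of the 107 genes excluded no difference. The choice of these genes by their ratio in the same UMIs largely fixed this in advance. The plot of ratio against level shows that the genes past 1.5-fold ran from the lowest levels compared up to Timp3 and Nupr1 at means of 1675 and 1615 CPM.

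**Figure D1:**
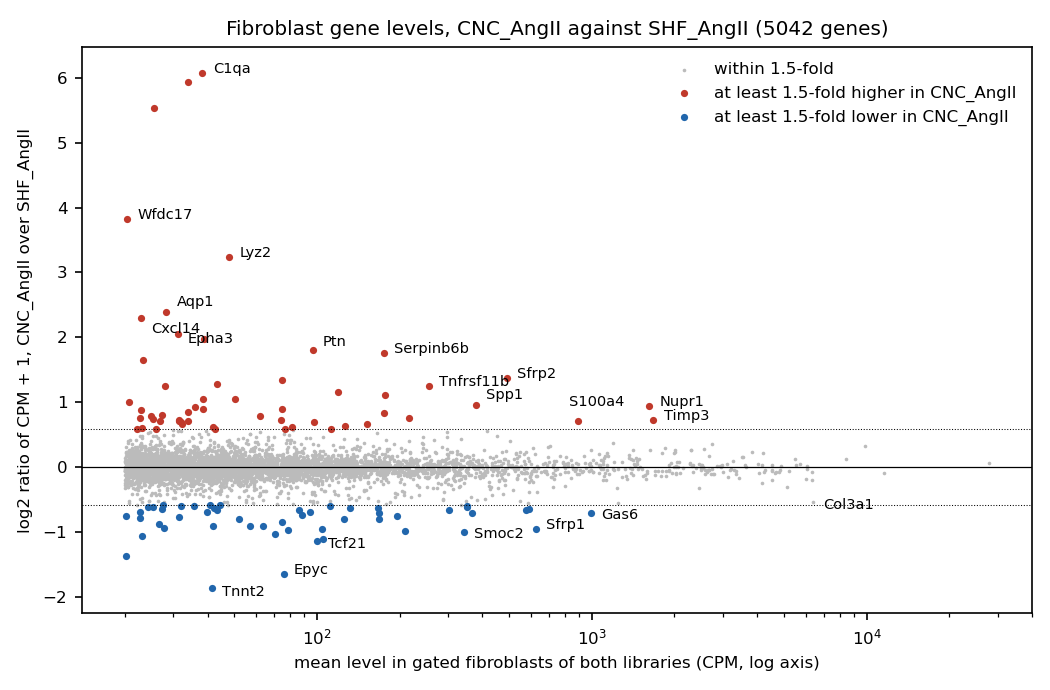
Each point is 1 of 5042 genes in gated fibroblasts, with its mean CPM over both libraries on a log axis and its log2 ratio of CNC_AngII over SHF_AngII; dotted lines mark 1.5-fold. Most genes lie close to 0, with 56 genes at or above the upper line and 51 at or below the lower one, and C1qa at the top with 6.07.

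The 5 highest ratios belonged to genes of macrophages. C1qa, C1qb and C1qc encode the 3 chains of complement C1q and sit side by side on chromosome 4 of GRCm38, C1qb at 136880129 to 136886187 and C1qa at 136895917 to 136898803. C1qa had 802 UMIs (76.3 CPM) in CNC_AngII fibroblasts and 6 UMIs (0.147 CPM) in SHF_AngII. Wfdc17 stood at 39.0 against 1.81 CPM, and Lyz2, the macrophage lysozyme, at 87.4 against 8.33. Macrophage-gated cells of CNC_AngII held C1qa 87.8 times higher than its fibroblasts. A UMI of any C1q chain was present in 32.2% of CNC_AngII fibroblasts, and also in 30.2% of its smooth muscle-gated cells, at median depths of 12398 and 13417 UMIs. In SHF_AngII the shares were 0.542% and 0.0663%. Most UMIs of these genes sat in few CNC_AngII fibroblasts. For each gene the top 5% of cells (39 cells) held 90.8% of the C1qa, 90.1% of the C1qb and 90.5% of the C1qc UMIs. For Wfdc17 and Lyz2 they held 80.7% and 78.7%. The source of the C1q UMIs in fibroblasts was not tested. Summed over 21 macrophage markers, fibroblasts held 468 CPM in CNC_AngII and 27.8 in SHF_AngII. With 10% of each sum subtracted as free RNA, C1qa came to 0.00 and Lyz2 turned to -3.25. A level that the subtraction took below 0 was set to 0. A ratio of 0.00 after subtraction thus means that nothing was left in either library, not that equal levels remained. In all, 7 of the 56 higher genes were at least 10 times higher in macrophages, beside 23 of all 5042 genes compared. Leaving out all such genes left 49 higher and 51 lower.

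Among Wnt modulators the secreted frizzled-related proteins split in direction. Sfrp2 (chromosome 3, 83766321 to 83774316) stood at 710 CPM in CNC_AngII and 272 in SHF_AngII, a log2 ratio of 1.38 (1.34 to 1.43). Sfrp4 was also higher, 61.7 against 24.9 CPM. Sfrp1 (chromosome 8, 23411502 to 23449632) went the other way, with 425 against 824 CPM and a ratio of -0.95 (-1.001 to -0.91). In untreated SHF fibroblasts Sfrp2 was at 238 and Sfrp1 at 321 CPM, below both AngII libraries. Sfrp2 was nearer this level in SHF_AngII and Sfrp1 in CNC_AngII. The untreated library is of SHF origin, so a distance of CNC_AngII from it mixes origin with AngII. Wnt5a, a non-canonical Wnt ligand, was at 30.3 against 49.4 CPM and at 179 in the untreated library. Sost, which encodes the Wnt inhibitor sclerostin, was at 35.9 against 10.8 CPM, but smooth muscle-gated cells of CNC_AngII held it 17.5 times higher than fibroblasts, and with 10% free RNA subtracted its ratio was 0.00. Of 9 compared genes of this list, 3 were higher, 2 lower and the median ratio was -0.07, beside 0.01 over all genes. Over all genes 1.11% were that much higher and 1.01% lower, shares to set beside each list count below.

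Growth factors showed the same kind of split, 4 of 24 higher and 3 lower (1.11% and 1.01% over all genes) with a median of -0.03. Bdnf, a neurotrophin, stood at 62.6 CPM in CNC_AngII and 15.2 in SHF_AngII, a ratio of 1.98 (1.89 to 2.21). Ptn, the heparin-binding cytokine pleiotrophin (chromosome 6, 36714929 to 36810220), was at 150 against 42.5 CPM. Pdgfa, a ligand of the receptor that defines the gate, was at 92.1 against 55.4, and Edn1, the endothelin precursor, at 31.9 against 17.9. The lower genes were Angptl7 at 28.9 against 55.1 CPM, Fgf18 at 18.5 against 34.9, and Gas6 at 757 against 1232. Gas6 is a ligand of the receptor kinase Axl, whose own level was 168 against 129 CPM. The neurotrophin receptor Ntrk2, to which Bdnf binds, was likewise higher, 28.1 against 13.4 CPM. The ephrin receptor Epha3 was the only gene past 1.5-fold of 9 compared in the axon guidance and Notch list, at 50.7 against 11.5 CPM.

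Cytokine genes past 1.5-fold were 2 higher and 2 lower of 29, beside 1.11% and 1.01% over all genes. Cxcl14 was at 38.5 against 7.05 CPM, and Tnfrsf11b, the decoy receptor osteoprotegerin, at 360 against 151. The alarmin Il33 was at 140 against 276 CPM, a ratio of -0.97 (-1.06 to -0.90), and the monocyte chemokine Ccl7 at 462 against 723. Ccl7 was at 112 CPM in the untreated library, below both. Il6 was at 151 against 218 CPM and Ptgs2, the inducible cyclooxygenase, at 238 against 337, short of 1.5-fold; both were picked after their values were seen. The cytokine list had 12 genes above 0, 17 below and a median of -0.09.

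Proteases and their inhibitors held 4 higher genes and 1 lower of 29, beside 1.11% and 1.01% over all genes. Serpinb6b, an intracellular serpin, was at 271 CPM in CNC_AngII, 79.5 in SHF_AngII and 15.02 in the untreated library. Timp3, a matrix-bound metalloproteinase inhibitor, was at 2091 against 1258 CPM, with a ratio of 0.73 (0.71 to 0.76). Its gene lies within Syn3 on the other strand and their exons overlap. Syn3 was at 28.7 against 16.6 CPM, and since strand use in the counting is not given, reads of the pair cannot be told apart. Serpine2, protease nexin, was at 97.3 against 51.8 CPM, and Htra1 at 187 against 117. The stromelysin Mmp3 was lower, 448 against 705 CPM, though its ratio fell short of 1.5-fold with cells weighted equally (-0.45) and in a stricter gate (-0.46).

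The gene lowest in CNC_AngII was Tnnt2, cardiac troponin T, at 17.4 against 65.4 CPM. Smooth muscle-gated cells carried it at 52.2 against 466 CPM. The 8 cardiomyocyte markers, Tnnt2 among them, summed to 20.3 CPM in CNC_AngII and 67.7 in SHF_AngII fibroblasts. Of the 8, 4 had no UMI in CNC_AngII fibroblasts and 2 had none in SHF_AngII, with Myh6 and Nppa absent from both. Epyc, a small leucine-rich proteoglycan of cartilage, was at 36.2 against 115 CPM, a ratio of -1.64 (-1.82 to -1.51). Tcf21 (chromosome 10, 22817281 to 22820174) was at 62.4 against 138 CPM and at 253 in the untreated library. It was the only one of 33 compared lineage transcription factors past 1.5-fold, a share near the 2.12% of all genes. Hand2 was at 30.8 against 41.1 CPM, while its antisense neighbour Hand2os1, with overlapping exons, was listed at 10.9 against 29.6. Reads of this pair cannot be told apart either. Hsd11b1, which regenerates active glucocorticoid, was at 66.5 against 144 CPM. The cell cycle inhibitor Cdkn1c was at 71.2 against 138. Alpl, the tissue-nonspecific alkaline phosphatase, was at 39.7 against 74.8. The plot of the leading genes sets these ratios beside those of smooth muscle.

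**Figure D2:**
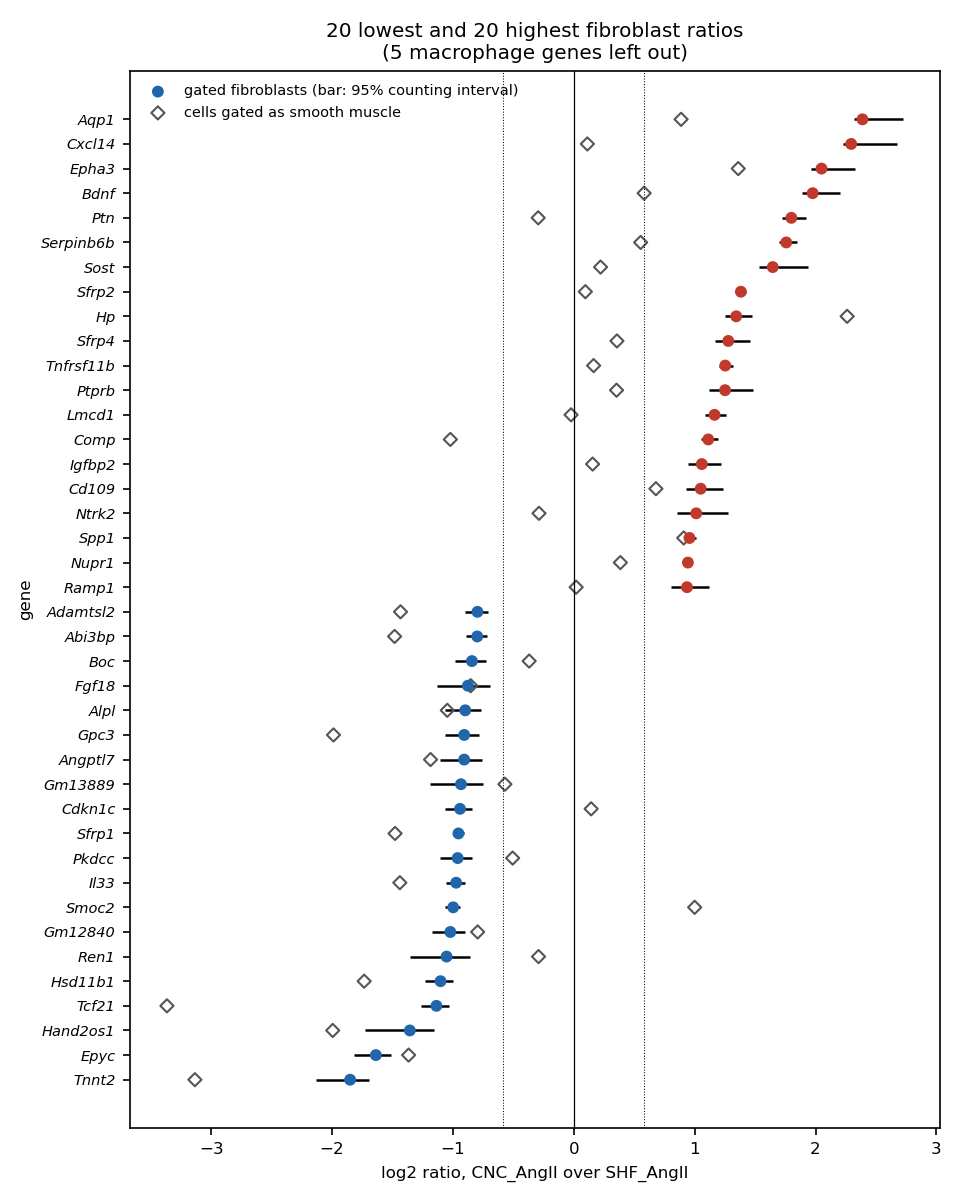
For each gene, the filled point (red higher, blue lower) is the log2 ratio of CNC_AngII over SHF_AngII in gated fibroblasts with its 95% counting interval, and the open diamond is the ratio in cells gated as smooth muscle; dotted lines mark 1.5-fold. The lower genes, such as Tcf21 at -1.14 in fibroblasts and -3.37 in smooth muscle, often had a diamond on the same side. Of the 20 higher genes 14 had a diamond within 1.5-fold, and Hp, Epha3, Spp1, Aqp1 and Cd109 one past it on the same side. Some of the 14 had low levels in smooth muscle, such as Cxcl14 (0.129 against 0.0442 CPM) and Ptn (1.16 against 1.65), where the added 1 CPM shrinks a ratio. Lmcd1 (458 against 466 CPM) did not, and Bdnf (0.58) and Serpinb6b (0.55) lay just inside the line. Comp at 1.11 and Smoc2 at -0.998 had diamonds past 1.5-fold on the other side. The 5 macrophage genes are not drawn.

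Matrix genes differed little as groups. Fibrillar and associated collagens leaned low in CNC_AngII, with 11 of 13 below 0 and a median of -0.22, which ran from -0.33 to -0.14 over the processing alternatives. Col3a1 was at 5210 against 7570 CPM, Col1a2 at 5618 against 6389 and Col1a1 at 3817 against 4529. Col11a1, a fibril-nucleating collagen, was the only member past 1.5-fold at 28.2 against 43.0 CPM, and it fell short of that fold with a pseudocount of 10 CPM (-0.47) or in a stricter gate (-0.31). Col6a3 lay above 0, at 325 against 268 CPM. Enzymes of collagen processing were below 0 in 17 of 20 with a median of -0.08 and none past 1.5-fold.

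Elastic fibre genes had a median of -0.02 over 21 genes. Eln, the elastin gene, was at 4526 against 3897 CPM, Mfap5 at 2719 against 2752 and Lox, which crosslinks elastin and collagen, at 1185 against 1200. Mfap2, a microfibril component, was the member past 1.5-fold, at 146 against 246 CPM. In the basement membrane list Col15a1 was at 121 against 74.0 CPM and Col18a1 at 39.9 against 24.1, while Smoc2 was at 228 against 457. Col18a1 was 39.4 times higher in smooth muscle-gated cells of CNC_AngII than in its fibroblasts and came to 0.00 with 5% free RNA subtracted. Of the proteoglycans, Bgn and Lum differed little, 4216 against 4106 and 1094 against 1368 CPM, whereas the heparan sulfate proteoglycan Gpc3 was at 44.0 against 83.4 and Cspg4 at 43.7 against 23.8.

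Matricellular genes held Spp1, which encodes osteopontin, at 501 against 257 CPM and 39.9 in the untreated library. The Spp1 UMIs sat in few cells of both libraries: the top 5% of fibroblasts held 94.4% of them in CNC_AngII and 96.7% in SHF_AngII. A single cell held 896 of the 5264 UMIs in CNC_AngII and 1611 of the 10509 in SHF_AngII. In a stricter gate, with 336 and 1247 cells, the Spp1 ratio was 0.40 in place of 0.96. Comp, the cartilage oligomeric matrix protein, was at 242 against 112 CPM, and was detected in 35.4% of CNC_AngII and 23.7% of SHF_AngII fibroblasts, beside 6.43% and 3.96% of smooth muscle-gated cells. Thbs4 was at 23.01 against 39.6 CPM and Abi3bp at 123 against 214. The cartilage and calcification list had the highest list median, 0.47 over 11 genes, with Comp and the tenomodulin gene Tnmd higher and Alpl lower. Tnmd fell short of 1.5-fold with TMM scaling (0.57) or a pseudocount of 10 CPM (0.44). That median ranged from 0.08 to 0.49 over the alternatives, with the lowest value under a stricter cell filter, where it lay below that of the interferon list (0.26). The plot by functional list shows all of these members.

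**Figure D3:**
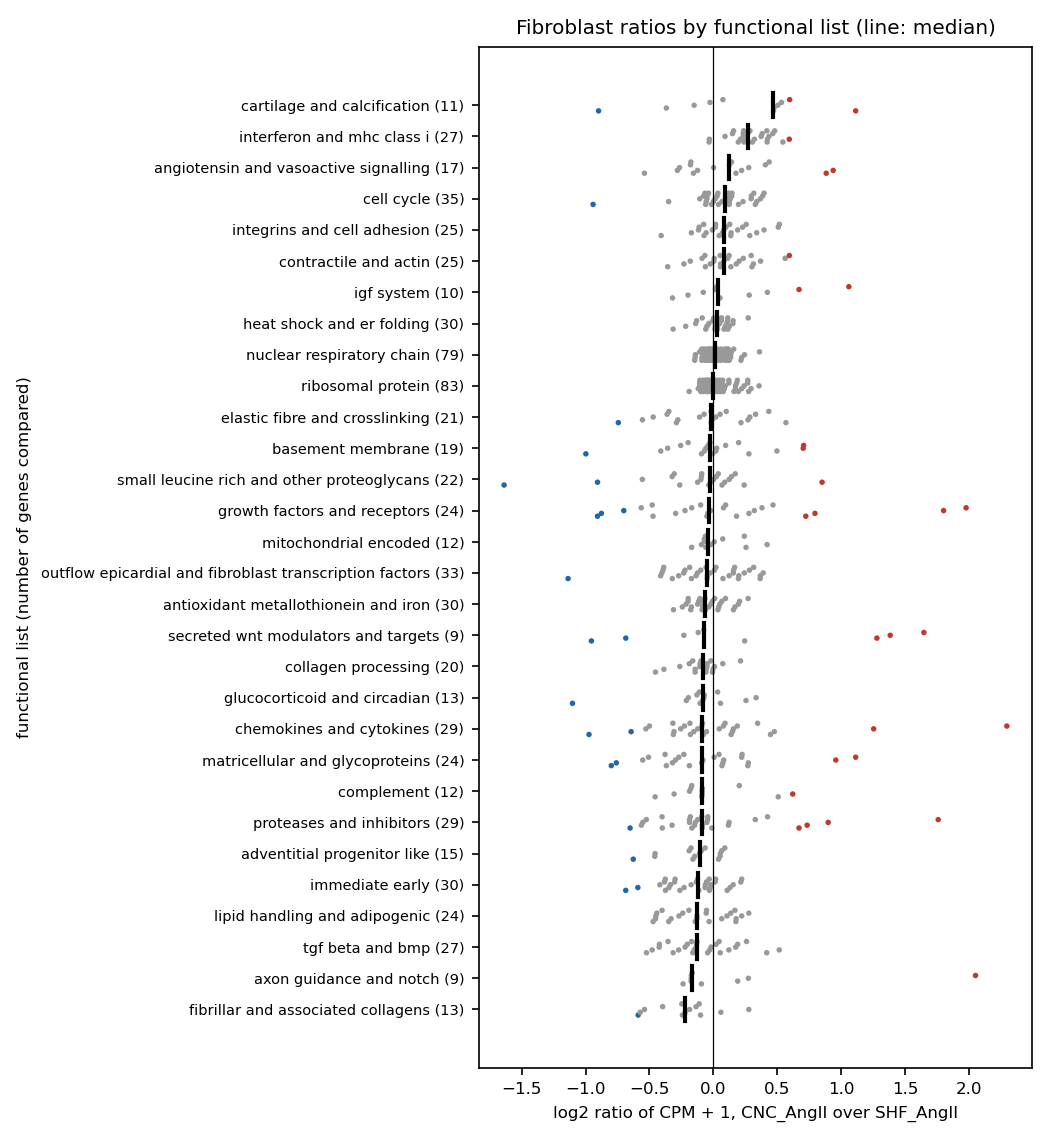
Each row is a functional list of at least 8 compared genes, with their number, each point a gene's log2 ratio of CNC_AngII over SHF_AngII (red at least 1.5-fold higher, blue at least 1.5-fold lower, grey between), and each black line the list's median. Among the lists shown, the cartilage list at 0.47 and the interferon list at 0.27 have the highest medians and the fibrillar collagens at -0.22 the lowest.

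Interferon-stimulated and MHC class I genes were slightly higher in CNC_AngII. Of 27 compared, 25 lay above 0, with a median of 0.27 beside 0.01 over all genes, and this median kept between 0.24 and 0.32 over the alternatives. Rtp4, at 51.2 against 33.6 CPM, was the only one past 1.5-fold, and it fell short with TMM scaling (0.57). Isg15, a ubiquitin-like protein induced by interferon, was at 352 against 242 CPM and 33.8 in the untreated library. Bst2, which tethers budding virus, was at 525 against 376, and the class I gene H2-D1 at 383 against 283. Isg15, Bst2 and H2-D1 were chosen after their values were seen. Ifitm3, Ifitm2 and Ifi27, the most abundant members, were at 2820 against 2313, 1121 against 1147 and 624 against 531 CPM. Macrophage-gated cells of CNC_AngII also held the list, with a summed level of 9588 CPM beside 7955 in its fibroblasts and 6652 in those of SHF_AngII. Without the fibroblasts that had a macrophage UMI the list median was 0.32. In smooth muscle-gated cells it was -0.13.

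Interferon acts on many of these genes through the interferon-stimulated response element, a short promoter sequence. Its core was searched as GAAA, any 2 bases and GAAA again, on both strands, in the 250 bases before each start of the RefSeq promoter table (GRCm38.p6). It was present in 978 of 32851 promoters, 2.98%, and before at least 1 start of 936 of 27025 genes, 3.46%. Of the 27 genes, 21 were in the table and 9 held the core before at least 1 start. Those 9 had a median ratio of 0.42 and the other 12 one of 0.26. The 150 bases before the start are shown for 5 of the 9 because they let the spacing of the element be seen, with each match in capitals. Coordinates are Isg15 chr4:156200819-156200968 (minus strand), Bst2 chr8:71537473-71537622 (minus strand), Ifit1 chr19:34640739-34640888 (plus strand), H2-T23 chr17:36032702-36032851 (minus strand) and B2m chr2:122147537-122147686 (plus strand).
Isg15: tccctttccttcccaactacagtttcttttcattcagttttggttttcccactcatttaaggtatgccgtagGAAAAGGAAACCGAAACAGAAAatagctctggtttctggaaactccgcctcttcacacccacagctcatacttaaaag
Bst2: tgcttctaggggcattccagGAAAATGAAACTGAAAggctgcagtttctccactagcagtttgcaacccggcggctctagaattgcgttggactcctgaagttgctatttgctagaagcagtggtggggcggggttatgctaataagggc
Ifit1: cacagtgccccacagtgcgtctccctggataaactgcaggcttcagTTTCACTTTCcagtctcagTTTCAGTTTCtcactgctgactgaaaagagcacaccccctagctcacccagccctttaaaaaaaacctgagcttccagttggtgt
H2-T23: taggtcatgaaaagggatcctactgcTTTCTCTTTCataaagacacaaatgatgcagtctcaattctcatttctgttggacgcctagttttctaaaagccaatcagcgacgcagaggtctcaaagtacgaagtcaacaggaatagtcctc
B2m: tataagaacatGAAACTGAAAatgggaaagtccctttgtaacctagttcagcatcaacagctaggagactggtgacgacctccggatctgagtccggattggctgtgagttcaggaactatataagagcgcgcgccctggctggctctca
Isg15 had 3 overlapping matches ending 57 bases before the start, Bst2 2 overlapping matches and Ifit1 2 separate ones. H2-T23 and B2m each had 1. The ratios of these genes were 0.54, 0.48, 0.42, 0.46 and 0.24 in that order. The other 4 genes with the core were Ifit3 at 0.42, Gbp2 at 0.21, H2-T22 at 0.15 and Ifitm2 at -0.03, so the genes shown lie on the higher side of the 9. A match is a stretch of letters and not a measured binding site.

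Immediate early genes, which also respond to tissue dissociation, leaned low in CNC_AngII, with 23 of 30 below 0 and a median of -0.12. Fos was at 1501 against 1625 CPM, Junb at 1701 against 1866 and Jun at 1309 against 1338. Nr4a2, an orphan nuclear receptor, was at 72.1 against 117 and Klf4 at 281 against 424, and neither reached 1.5-fold after cells were thinned to 5000 UMIs (-0.47 and -0.50). Of the TGF-beta and BMP list 18 of 27 genes were below 0, with a median of -0.13 and none past 1.5-fold. Its Tgfb1, at 75.7 against 56.4 CPM, lay above 0, and Id1, a BMP target, below at 109 against 153. Both were chosen after their values were seen.

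Several levels that differed from those of the untreated library were close between the 2 origins. Cell cycle genes had a median of 0.09 over 35 genes, and Top2a or Mki67 was detected in 18.6% (15.9 to 21.5) of CNC_AngII and 18.8% (17.2 to 20.4) of SHF_AngII fibroblasts, beside 0.705% in the untreated library. Thinned to 5000 UMIs the shares were 13.6% and 14.0%. In smooth muscle-gated cells the unthinned shares were 4.61% and 2.10%. Contractile genes had a median of 0.08, with Acta2 at 2057 against 2047 CPM and 587 untreated. Timp1 was at 2975 against 3294 CPM and 199 untreated, and Postn at 379 against 368 and 121 untreated. Among ribosomal protein genes none of 83 passed 1.5-fold, nor did any of 79 nuclear respiratory chain genes, of 12 mitochondrial genes, of 30 antioxidant and iron genes, of 24 lipid genes or of 30 heat shock and folding genes. Over all compared genes only 2.12% passed this fold, so none in a list of 12 to 30 genes lies near that share. Pi16, the marker of adventitial progenitor-like fibroblasts, was detected in 86.3% and 89.9% of fibroblasts, 77.9% and 78.3% after thinning, beside 4.38% and 10.7% of smooth muscle-gated cells. Of the 107 genes, 96 had the same direction in Pi16-positive and Pi16-negative fibroblasts. The genes were called on the sum of these same cells, most of them Pi16-positive, so this count was largely set by the call.

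Of the 107 genes past 1.5-fold, 25 higher and 28 lower ones were in no list. The most abundant were Nupr1, a stress-induced chromatin protein, at 2125 against 1104 CPM, and S100a4, a calcium-binding protein, at 1106 against 670. Lmcd1, a LIM domain protein, was at 166 against 73.3 CPM, the water channel Aqp1 at 48.2 against 8.40, and haptoglobin (Hp) at 107 against 41.7. On the lower side the creatine kinase Ckb was at 279 against 456 CPM and the renin gene Ren1 at 14.6 against 31.4. The hedgehog pathway genes Boc at 53.0 against 95.8, Gas1 at 88.4 against 134 and the receptor Ptch1 at 25.3 against 38.7 were all lower. Hedgehog genes formed no list, and these were grouped after their values were seen. In the stricter gate Ren1 had a ratio of -0.29.

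Markers of other cell types bear on a few of these values. Smooth muscle markers summed to 4537 against 4599 CPM, endothelial markers to 47.5 against 34.1, Schwann cell markers to 42.1 against 30.9 and mesothelial markers to 18.4 against 26.4. Markers of T cells, B cells, neutrophils, erythrocytes and adipocytes each summed to at most 2.01 CPM. Of all 5042 genes compared, 17 were at least 10 times higher in smooth muscle-gated cells than in fibroblasts of CNC_AngII. They included 4 of the 56 higher genes, Sost, Igfbp2, Ramp1 and Col18a1, and 1 of the 51 lower, Gm13889. Igfbp2 was at 68.3 against 32.2 CPM in fibroblasts and, like Ramp1, came to 0.00 with 10% free RNA subtracted, where nothing was left in either library. Over the 14 alternatives the ratio ran from 0.00 to 4.21 for Igfbp2, to 1.87 for Ramp1, to 3.84 for Sost and to 0.85 for Col18a1. The part of other cells' RNA in the remaining ratios was not tested.

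The same contrast in smooth muscle-gated cells gave a ratio past 1.5-fold in the same direction for 11 of the 56 higher and 23 of the 51 lower genes. Over all 5042 genes 1.45% were that much higher in smooth muscle and 3.15% lower. Of the 11, 5 were the macrophage genes C1qa, C1qb, C1qc, Lyz2 and Wfdc17, and the other 6 were Hp, Epha3, Spp1, Aqp1, S100a4 and Cd109. Sfrp1 was at 4.73 against 14.96 CPM there and Il33 at 0.612 against 3.37, far below their fibroblast levels. Others of the 23 were also at low levels in smooth muscle, such as Epyc (0.107 against 1.85 CPM), Alpl (0.247 against 1.58) and Tcf21 (0.451 against 13.96). Tnnt2 (52.2 against 466) and Gm12840 (19.9 against 35.3) stood higher. The part of fibroblast RNA in the smooth muscle levels was not tested. Spp1 was at 266 against 141 CPM and S100a4 at 2368 against 1364. Comp, Gpm6b, Smoc2 and Thbs4 were past 1.5-fold in opposite directions.

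The CNC_AngII fibroblasts were not uniform, which appeared when they were divided by Tcf21. This division was made after the values were seen. A Tcf21 UMI was present in 178 of 769 CNC_AngII fibroblasts, 23.1% (20.2 to 26.3), and in 1571 of 2398 of SHF_AngII, 65.5% (63.6 to 67.4), beside 0.532% and 14.1% of smooth muscle-gated cells. Median depths of the positive and negative cells were 9624 and 13204 UMIs in CNC_AngII and 15528 and 15464 in SHF_AngII. Among 1394 genes with a mean of at least 100 CPM over the 4 sums, 124 differed by 1.5-fold or more between Tcf21-positive and Tcf21-negative cells of CNC_AngII, 8.9% of them. In SHF_AngII the same division gave 19 genes, 1.36%. With cells thinned to 5000 UMIs before the division there were 79 higher and 132 lower genes in CNC_AngII, and 10 and 19 in SHF_AngII. The smaller sums of CNC_AngII carry more counting error, which also adds to its count.

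The genes that led the whole-library contrast named here were much higher in 1 of the 2 CNC_AngII fractions. The Tcf21-negative cells supplied 8446102 of the 10515009 UMIs of the CNC_AngII sum on which genes were called. That a called direction appeared in this fraction was thus largely set by the call. Sfrp2 was at 863 CPM in Tcf21-negative and 86.0 in Tcf21-positive CNC_AngII cells, against 384 and 213 in SHF_AngII. Tnfrsf11b was at 438 and 43.5, against 156 and 148. Serpinb6b was at 323 and 59.0, against 75.6 and 81.5. Bdnf (75.1 and 11.6 CPM), Epha3 (60.9 and 9.18), Comp (285 and 70.6), Nupr1 (2450 and 797), Timp3 (2377 and 927) and S100a4 (1253 and 504) had the same order in CNC_AngII. In each of these genes the Tcf21-positive cells of CNC_AngII lay below both SHF_AngII fractions, or in Epha3 and Bdnf between them.

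Ptn ran the other way. It was at 611 CPM in Tcf21-positive and 37.5 in Tcf21-negative CNC_AngII fibroblasts, against 54.5 and 19.3 in SHF_AngII, and Cxcl14 was at 129 and 16.5 against 4.02 and 12.9. Several genes that were lower in CNC_AngII as a whole had their lowest level in its Tcf21-negative cells, which the call on a sum made mostly of these cells largely set. Epyc was at 21.7 CPM there and 95.7 in the Tcf21-positive cells, against 124 and 110 in SHF_AngII. Cdkn1c was at 51.1 and 153, against 160 and 126, Il33 at 123 and 211, against 355 and 236, and Sfrp1 at 365 and 668, against 962 and 753. Mmp3 was at 344 and 874, against 705 in both SHF_AngII fractions. Pi16 (1368 and 1168 CPM) and Col1a1 (3831 and 3759) were close between the CNC_AngII fractions, and a C1q UMI was present in 32.1% and 32.6% of their cells. Isg15 was at 393 in the Tcf21-negative and 188 in the Tcf21-positive cells, against 246 and 239.

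**Figure D4:**
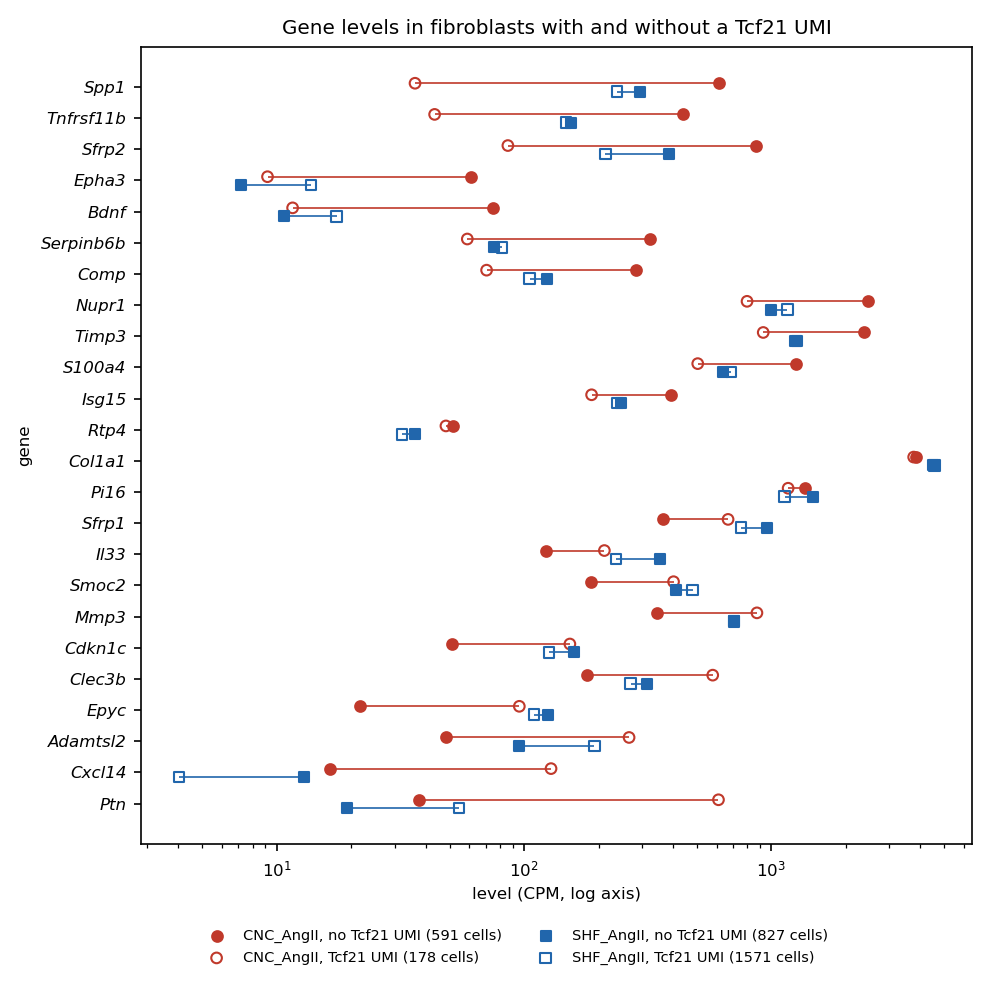
Levels of 24 genes in CPM on a log axis, in fibroblasts with no Tcf21 UMI (filled) and with one (open), for CNC_AngII (red circles) and SHF_AngII (blue squares). The red pairs are far apart for genes such as Spp1 (614 against 36.3 CPM) and Ptn (37.5 against 611), while the blue pairs are close for most of the 24 genes. These genes were picked by hand. Some called genes not drawn also split in SHF_AngII, such as Thbs4 (106 CPM without and 5.10 with a Tcf21 UMI) and Gucy1a1 (7.79 and 19.9). The top 5% of CNC_AngII fibroblasts held 94.4% of the Spp1 and 82.5% of the Ptn UMIs, and those of SHF_AngII 96.7% and 97.2%. For Spp1 the log2 ratio of positive over negative cells was -4.05 in CNC_AngII and -0.31 in SHF_AngII. With cells thinned first it was -2.70 and -1.62. For Ptn the thinned ratios were 3.60 and 1.51.

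Origin was then compared within each fraction. Among Tcf21-negative cells 69 of the 1394 genes, 4.95%, differed by 1.5-fold or more between CNC_AngII and SHF_AngII, 25 higher and 44 lower. With cells thinned first there were 16 higher and 28 lower. Serpinb6b led with 2.08, then Tnfrsf11b with 1.49 and Nupr1 with 1.29, and Cdkn1c was lowest at -1.63. Among Tcf21-positive cells 49 genes, 3.52%, passed this fold, 20 higher and 29 lower, with Ptn highest at 3.46 and Spp1 lowest at -2.68. Thinning gave 32 higher and 96 lower genes here, so which fraction held more such genes turned with the thinning, which left 113 Tcf21-positive CNC_AngII cells. For Spp1, Sfrp2 and Tnfrsf11b the ratio was thus of opposite sign in the 2 fractions, -2.68 against 1.05, -1.30 against 1.17 and -1.74 against 1.49. The Tcf21-positive values of CNC_AngII rest on 75, 178 and 90 UMIs of these genes. With cells thinned first the Tcf21-positive ratios of Spp1 and Sfrp2 shrank to -0.05 and -0.24, while that of Tnfrsf11b was -2.56. Igfbp6 at 1.37, Clec3b at 1.10 and the actin-severing protein gene Gsn at 1.05 were also among the highest in Tcf21-positive cells.

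Some leading genes were carried by few cells in either library. Cxcl14 was detected in 48 CNC_AngII fibroblasts, and the top 5% of cells (39 cells) held 97.8% of its UMIs. Ptn was detected in 14.2% of CNC_AngII and 7.05% of SHF_AngII fibroblasts, beside 0.935% and 1.44% of smooth muscle-gated cells, and the top 5% held 82.5% and 97.2% of its UMIs. For Hp these shares were 89.6% and 94.1%. Others were spread more widely. Sfrp2 was detected in 58.8% of CNC_AngII and 35.6% of SHF_AngII fibroblasts, 50.9% and 26.6% after thinning, beside 27.2% and 22.6% of smooth muscle-gated cells. Epha3 was detected in 36.9% and 12.9% of fibroblasts, beside 4.45% and 1.06% of smooth muscle-gated cells. Serpinb6b was detected in 51.0% and 35.4% of fibroblasts but in 74.1% and 58.7% of smooth muscle-gated cells, at 156 and 106 CPM there, and the part of their RNA in its fibroblast levels was not tested.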

How the data were processed

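Single-cell RNA was profiled from sorted cells of the ascending aorta. The authors deposited tables of raw UMI counts per gene and barcode, one for each of 3 libraries. Per the submitters' processing notes, fastp, STAR 2.5, HTSeq 0.6.1 and the mm10 build were used, with no roles stated. Strand use in counting is not given in the sources used here. The filters and the fibroblast gate given above were applied, counts were summed over gated cells, and CPM used all genes of the sum. A ratio is log2 of (CPM + 1), so it understates differences of low genes. Its interval is the exact conditional binomial one for the plain ratio without the added 1, which is why the C1q ratios lie below their intervals. With 1 library per group no test was made. A gene was called at 1.5-fold.

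Named genes were the 20 highest and 20 lowest ratios and, in each list, up to 8 called members and the 3 most abundant; others are said to have been picked later. The members and lists were chosen with earlier results of these data known. Smooth muscle-gated cells had at least 5 UMIs of Myh11 and 20 of Acta2. Thinning drew 5000 UMIs per cell. The stricter gate asked for at least 2 UMIs of Pdgfra, 10 of Dcn and none of Myh11. The stricter cell filter kept cells with 1000 genes or more and no more than 5% mitochondrial UMIs. Scrublet, as run in scanpy 1.11.5, marked 239 and 209 barcodes of the AngII libraries (2.28% and 2.20%), of which 9 and 0 lay in the gate. These cells were kept. The ratio script was tested on simulated counts. Python 3.11.15, numpy 2.4.6, pandas 2.3.3, scipy 1.17.1 and edgeR 4.0.16 (TMM factors only) were used. Gene positions are from GENCODE M21 on GRCm38, and promoter sequences are from RefSeq.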

Additional observations from a re-analysis of the deposited data

Results flagged for a closer look

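Genes stand here because the ratio of CNC_AngII over SHF_AngII passed 1.5-fold in opposite directions in gated fibroblasts and in smooth muscle-gated cells. The difference between the cell types was not tested, since each group is 1 library. Comp had a ratio of 1.11 in fibroblasts and -1.02 in smooth muscle, where its levels were 9.25 and 19.8 CPM. Gpm6b, a membrane proteolipid, had 0.71 and -0.96, at 0.43 against 1.78 CPM in smooth muscle. Thbs4 had -0.76 and 0.90, at 1.01 against 0.0736 CPM in smooth muscle, and its UMIs in CNC_AngII fibroblasts came from 22 cells. Smoc2 had -0.998 in fibroblasts and the opposite sign in smooth muscle, at 66.2 against 32.6 CPM.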

How the results depend on the processing

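The count of higher genes lay between 39 and 69 and that of lower genes between 34 and 64 under the alternatives not named next. With a gene minimum of 5 CPM they were 133 and 111, and with 50 CPM 23 and 30. With the mean of per-cell CPM 33 genes were lower. Without the 9 CNC_AngII fibroblasts marked as doublets they were 50 and 48. TMM scaling gave 50 higher and 58 lower. Genes at least 10 times higher in macrophage-gated cells were left out as an alternative chosen after seeing the data, giving 49 and 51, and with such smooth muscle genes left out too 45 and 50. Of the 107 genes, 101 were also called with TMM scaling, 74 in the stricter gate, 80 after thinning and 75 with the mean of per-cell CPM.

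For 65 called and named genes, 838 of 910 values under 14 alternatives stayed past 1.5-fold in the same direction, and 38 genes did so in all 14. With 5% free RNA subtracted Lyz2 turned to -0.87 and Wfdc17 to -1.51. With 10% Lyz2 was -3.25, Wfdc17 -1.53 and C1qc -0.0097. In the stricter gate Clu (0.14), Gas6 (-0.55), Adamtsl2 (-0.54), Edn1 (0.54) and Col15a1 (0.53) fell short of 1.5-fold, as did Htra1 (0.55) and Abi3bp (-0.53) with the mean of per-cell CPM, Wnt5a (-0.56) with a pseudocount of 10 CPM, Pdlim5 (0.49) after thinning and Tnfaip6 (-0.50) without cells holding macrophage UMIs. Without those cells C1qa, C1qb and C1qc came to 0.00, by construction. Subtraction assumes that every cell holds the same share of free RNA. No paired analysis was possible because each group is 1 library. Precision is limited by the 769 CNC_AngII fibroblasts and by the lack of a second library.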
